A study of Mus musculus with 16 samples.

Results

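Podocyte RNA collected 7 days after a single dose of the immunotoxin LMB2 was compared with podocyte RNA collected 4 days after the same dose. The 8 arrays are those titled as LMB2-treated podocytes at day 4 (4 arrays) and at day 7 (4 arrays), out of 16 arrays in the series. The injured animals were Nphs1-RiboTag-NEP25 mice on a C57BL/6N background, each given 0.625 ng LMB2 per g body weight into the tail vein. All of them carried Nphs1-Cre, the RiboTag allele and NEP25, at both days, so the comparison is between times after the toxin and holds no untreated NEP25 animal. The other 8 arrays are normal podocytes (4) and normal glomerular cells (4); the design text describes that RNA as coming from Nphs1-RiboTag mice and does not name NEP25 for them. Age, sex and the number of animals behind each array are not given in the labels. Nothing in the labels says that the arrays of a group came from separate mice, so the p-values below measure the spread between these arrays.

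Podocytes are the epithelial cells that wrap the glomerular capillaries, and their interlocking foot processes, bridged by the slit diaphragm, form the last layer of the kidney filter. In RiboTag mice, Cre switches the ribosomal protein Rpl22 to a form tagged with the HA epitope, and an HA antibody then pulls down polysomes of the cells that express Cre, here podocytes through the Nphs1 (nephrin) promoter. NEP25 mice carry human CD25 on podocytes, and LMB2 joins a CD25-binding antibody fragment to a bacterial exotoxin that inactivates elongation factor 2, the product of Eef2. The model is used to study glomerulosclerosis that starts from the podocyte. RNA on polysomes reflects both how much messenger a cell holds and how much of it is engaged by ribosomes, and in pulled-down RNA of many cells, fewer podocytes and less RNA per podocyte cannot be told apart.

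Each array measured 59305 non-control spots, of which 49.8% to 53.3% were well above background on the 8 injured arrays and none was saturated. Levels are given as the log2 signal minus the 75th percentile of the array, so a level of 0 is the signal of that percentile and a difference of 1 is a 2-fold change. The podocyte label was checked against marker lists. The mean level of the slit diaphragm genes was 4.16 to 4.33 at day 4 and 3.80 to 3.96 at day 7, against 2.75 to 3.32 in glomerular cells. That of the endothelial list was -0.57 to 0.42 at day 4 and 0.32 to 0.83 at day 7, against 4.30 to 4.59 in glomerular cells. In a principal component analysis of the 8 arrays, the first component (48.6% of the variance) put the days apart without overlap. The second (24.5%) set day 4 replicate 1 and day 7 replicate 4 apart from the other 6 arrays, and the same arrays had the highest mean level of the proximal tubule list, at 2.61 and 3.25 against -0.56 to 0.97 in the others. All 8 arrays lay on 1 slide, with day 4 in row 2 and day 7 in row 1, so within that slide the day and the row cannot be told apart. The other slide held both normal groups in both rows, and a fit with the row as a term, which takes the row effect of that slide to hold here, is given below for the calls it ended.

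S100a6, Timp1, Sema3g and Dner show the kinds of difference found between the days. S100a6, a small calcium-binding protein, measured 2.61, 2.45, 2.94 and 3.10 on day 4 replicates 1 to 4 and 9.02, 9.17, 8.59 and 8.36 on day 7 replicates 1 to 4. Every day 7 array was above every day 4 array, by a mean of 6.01 ± 0.24 (SE) on the log2 scale, a 64.4-fold rise (limma, Benjamini-Hochberg adjusted p = 4.9e-09). Timp1, an inhibitor of matrix metalloproteinases, measured -0.92, -0.997, -0.39 and 0.07 at day 4 and 3.33, 4.22, 4.86 and 4.21 at day 7. The groups did not overlap, and the rise was 4.72 ± 0.32, or 26.3-fold (limma adjusted p = 2.4e-07).

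Sema3g, a secreted class 3 semaphorin made by podocytes, measured 6.44, 6.44, 6.54 and 6.28 at day 4 and 2.80, 3.40, 4.32 and 3.42 at day 7. It fell by 2.94 ± 0.26, or 7.66-fold, with no overlap, although the day 7 arrays spread over more than the day 4 arrays (SD 0.62 against 0.11; limma adjusted p = 3.0e-06). Dner, a transmembrane protein with EGF repeats known as a Notch ligand in neurons, measured -0.02, 0.15, 0.65 and 1.08 at day 4 and -2.57, -2.90, -2.96 and -3.47 at day 7. It fell by 3.44 ± 0.26, or 10.9-fold, with no overlap (limma adjusted p = 6.8e-07). With the normexp background correction, which pulls dim values together, the Dner fall was 2.08 and was still called.

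The levels of these 4 genes in normal podocytes differed in their relation to day 4. S100a6 stood at 2.14 ± 0.38 (SD, n = 4) in normal podocytes, a level 0.64 below its day 4 mean that did not pass the test (limma adjusted p = 0.056). Timp1 stood at -2.31 ± 0.39 in normal podocytes and was already 1.75 higher at day 4. Sema3g stood at 6.83 ± 0.20 and was 0.41 lower at day 4, a difference that did not pass the test (limma adjusted p = 0.26). Dner was not well above background on any normal podocyte array, with a measured mean of -6.92 ± 0.39, and so was high at day 4 and lower, though still above background on 4 of 4 arrays, at day 7. Comparisons with normal podocytes share the injured arrays with the comparison of the days and are given here and below only to place the levels. The normal podocyte arrays all lay on the other slide, so in these comparisons injury and slide cannot be told apart. Over all genes, 12.3% were called higher and 19.9% lower than normal at day 4, and 21.6% higher and 36.7% lower at day 7.

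**Figure D1:**
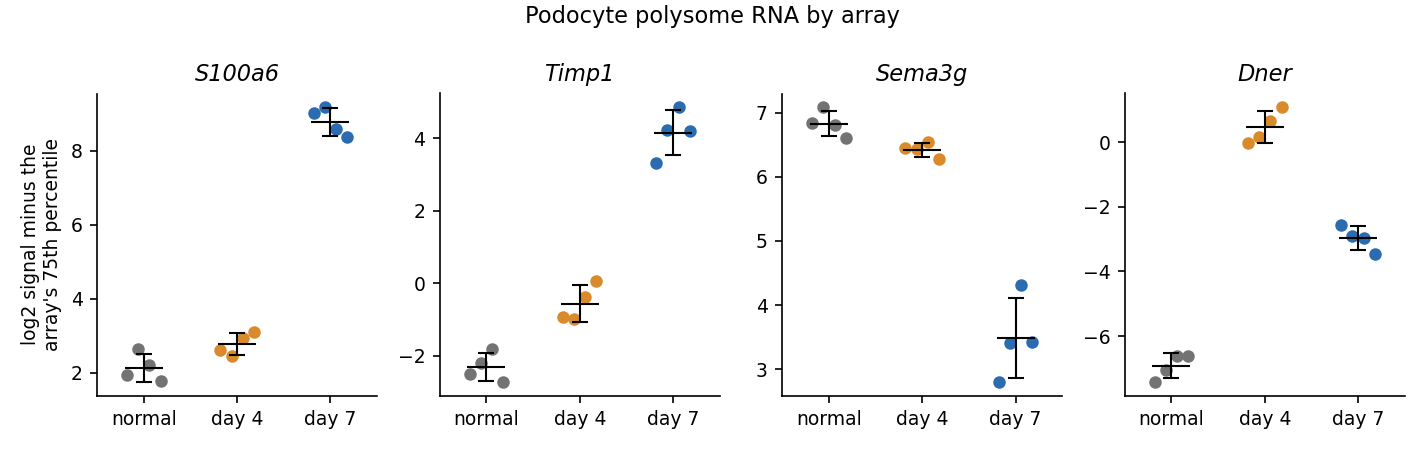
Log2 signal minus the 75th percentile of the array for S100a6, Timp1, Sema3g and Dner on each normal podocyte, day 4 and day 7 array (dots), with the mean and SD of the 4 arrays of each group (bars). S100a6 and Timp1 have their highest values at day 7, Sema3g its lowest at day 7, and Dner its highest at day 4; the vertical axes differ between panels.

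The promoter windows of these 4 genes are shown because they carry the clearest differences in each direction. Each runs from 250 bases before to 50 bases after the annotated start, 5′ to 3′ on the gene's strand, from RefSeq on GRCm38.p6: S100a6 at chr3:90612644-90612943 (plus strand), Timp1 at chrX:20869916-20870215 (plus strand), Sema3g at chr14:31217623-31217922 (plus strand) and Dner at chr1:84696172-84696471 (minus strand). Capitals mark a motif of those searched.
S100a6: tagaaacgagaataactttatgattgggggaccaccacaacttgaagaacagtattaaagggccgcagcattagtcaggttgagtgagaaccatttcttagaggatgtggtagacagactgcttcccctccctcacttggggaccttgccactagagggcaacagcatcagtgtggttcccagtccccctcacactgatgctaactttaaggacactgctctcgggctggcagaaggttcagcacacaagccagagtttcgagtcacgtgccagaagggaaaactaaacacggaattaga
Timp1: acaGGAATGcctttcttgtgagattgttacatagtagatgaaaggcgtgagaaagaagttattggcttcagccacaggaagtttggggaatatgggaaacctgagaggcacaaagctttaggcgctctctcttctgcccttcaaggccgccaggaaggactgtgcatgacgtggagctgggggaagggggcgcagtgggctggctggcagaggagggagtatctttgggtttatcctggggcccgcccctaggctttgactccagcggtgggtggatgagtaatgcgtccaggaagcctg
Sema3g: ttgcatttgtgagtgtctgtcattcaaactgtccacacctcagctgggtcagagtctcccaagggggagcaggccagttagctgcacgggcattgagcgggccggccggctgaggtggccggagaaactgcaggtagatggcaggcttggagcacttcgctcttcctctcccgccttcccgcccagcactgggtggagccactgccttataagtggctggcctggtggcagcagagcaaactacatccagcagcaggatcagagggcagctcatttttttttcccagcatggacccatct
Dner: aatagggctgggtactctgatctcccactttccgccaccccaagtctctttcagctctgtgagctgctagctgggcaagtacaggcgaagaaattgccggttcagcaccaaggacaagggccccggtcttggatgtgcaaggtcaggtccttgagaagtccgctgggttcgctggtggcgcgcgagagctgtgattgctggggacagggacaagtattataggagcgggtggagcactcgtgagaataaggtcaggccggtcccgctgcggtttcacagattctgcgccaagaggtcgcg

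On both strands the search covered the AP-1 word TGAGTCA, the CRE word TGACGTCA and the TEAD word GGAATG. It also covered, on both strands, the NF-kappaB site in its consensus forms and the SRF CArG box. The TATA word TATAAA was searched on the gene's strand only. None of these words contains another. The only match was the TEAD word in the Timp1 window, 247 bases before the start. That word was in 14.7% of all 32851 RefSeq windows of this length, and a match is a description of letters, not of a bound site.

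Of the 14575 genes tested, 11583 had a promoter window. In windows of genes called at least 2-fold higher at day 7, the TATA word was in 9.57%, against 5.23% for all genes tested. TEAD was in 16.2% against 12.8%, NF-kappaB in 0.58% against 0.33%, CRE in 2.22% against 2.79% and the CArG box in 1.28% against 1.45%. For genes called at least 2-fold lower, CRE was in 4.72%, TATA in 7.87%, TEAD in 14.7%, CArG and NF-kappaB in 0.26% each. The AP-1 word was in 54 of 857 windows (6.30%) of genes called at least 2-fold higher at day 7, in 15 of 381 windows (3.94%) of genes called at least 2-fold lower, in 3.94% of the windows of all genes tested and in 5.20% of all windows. The following stretches hold that word, in capitals, in the windows of the 4 genes with the largest rises among those that hold it: Sphk1 (sphingosine kinase; chr11:116531776-116531804, plus strand, 50 bases before the start), Crygn (a crystallin; chr5:24758063-24758091, minus strand, 232 bases before), Sprr1a (a cornified-envelope protein; chr3:92485980-92486008, minus strand, 116 bases before, the nearer of its 2 copies) and Plaur (the urokinase receptor; chr7:24462403-24462431, plus strand, 69 bases before).
Sphk1: gagcgtgtcgcTGAGTCAccttctcggaa
Crygn: ctcccgagcccTGACTCAgcagggcagca
Sprr1a: ggggaggagggTGAGTCAtaggtgactgg
Plaur: acccctggagcTGACTCActctttagcaa

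The rises of those genes were 4.82 for Sphk1, 4.44 for Crygn, 4.15 for Sprr1a and 4.01 for Plaur on the log2 scale. At day 4, Sphk1 was well above background on 3 of 4 arrays and Sprr1a on 1 of 4.

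Across all genes, 1930 of 14575 (13.2%) were called higher at day 7 and 3021 (20.7%) lower (limma, Benjamini-Hochberg adjusted p under 0.05). The median difference over all genes was -0.07. Among large changes the rises were more numerous: 899 genes (6.17%) were called and at least 2-fold higher, and 381 (2.61%) at least 2-fold lower, 1280 in all, which became 600 with the normexp correction. The arrays of the 2 days did not overlap for 12.3% of genes in the upward and 21.9% in the downward direction. The split depends on the scaling: with the 75th percentile taken over the probes detected on all arrays, 2407 genes were called higher and 2231 lower, so that 51.9% of calls were higher in place of 39.0%, and the median over all genes was 0.02. Small differences are therefore given below with their size. The counts of each gene list below are to be read beside the shares of all genes, 13.2% called higher and 20.7% lower.

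**Figure D2:**
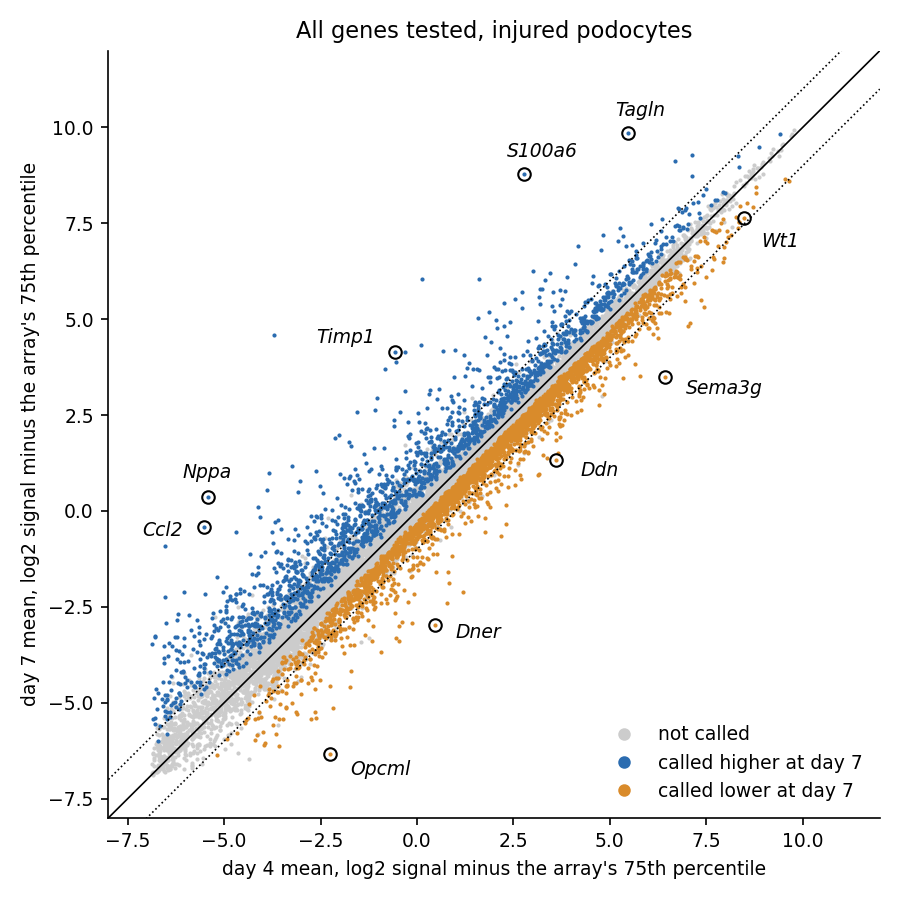
Mean level at day 7 against mean level at day 4 for the 14575 genes tested, both as log2 signal minus the 75th percentile of the array, with genes called higher at day 7 in blue, called lower in orange and others in grey. The solid line marks equal levels and the dotted lines a 2-fold difference; S100a6, Timp1 and Tagln lie far above the upper line, and Sema3g, Dner, Ddn and Opcml below the lower one.

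Large rises were also found in signalling and cytoskeletal genes. Tgfb3, a transforming growth factor beta ligand, measured -0.76, -0.61, -0.57 and -0.22 at day 4 and 3.85, 4.24, 3.59 and 3.91 at day 7, a rise of 4.43 ± 0.19. Tagln, the smooth-muscle actin-binding protein transgelin, was already high at day 4, at 5.29, 5.19, 5.26 and 6.11, and reached 9.95, 10.07, 9.85 and 9.60 at day 7, a rise of 4.40 ± 0.25. Its day 4 replicate 4 stood above the other 3 day 4 arrays and still well below every day 7 array.

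Further genes among the 12 largest rises are given next. That ranking took only genes without overlap between the days, so their lack of overlap is a condition of the ranking. Col5a3, a type V collagen chain, rose by 4.52 ± 0.37, the beta-tubulin Tubb6 by 4.45 ± 0.35, Crygn by 4.44 ± 0.29, the membrane-anchored semaphorin Sema7a by 4.42 ± 0.33 and the ATP-gated channel P2rx5 by 4.22 ± 0.22. Dnm1, a dynamin of endocytosis, rose by 4.13 ± 0.40 on its brightest probe and by 0.01 on its other probe, so the rise rests on 1 of 2 probes. The metalloproteinase Adamts8 rose by 4.02 ± 0.65, against 1.40 on its other probe.

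For 71 genes the day 7 arrays were all above background and the day 4 arrays all below it, which leaves only a lower bound. Nppa, which encodes atrial natriuretic peptide, was at least 33.2-fold higher at day 7, where it measured 0.06, 0.43, 0.15 and 0.82. The chemokine Ccl2 was at least 19.2-fold higher and measured 0.65, 0.95, -1.90 and -1.40 at day 7, so that replicates 1 and 2 stood well above replicates 3 and 4. Its neighbour in function Ccl7 was at least 5.42-fold higher and split the same way, at -1.49 and -1.43 against -3.15 and -2.93. The homeobox gene Obox6 was at least 5.93-fold higher and the matricellular protein Ccn4 at least 5.54-fold higher.

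Genes that fell differed in their level before day 7. In the first kind the day 4 level was within 0.3 of the normal podocyte level and the fall came after it. Opcml, a cell adhesion molecule of neurons, went from -2.26 ± 0.37 at day 4 to below background on all 4 day 7 arrays, at least 5.52-fold lower. Lrrc4, a leucine-rich-repeat adhesion protein, fell by 2.92 ± 0.33 and the ubiquitin-conjugating enzyme gene Ube2ql1 by 2.80 ± 0.21. P2ry14, a receptor for UDP-sugars, fell by 2.75 ± 0.29. P2ry14 measured -0.59, -0.57, -0.52 and -0.54 at day 4 and -2.56, -3.93, -3.27 and -3.44 at day 7. The potassium channel Kcna6 fell by 2.83 ± 0.52.

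Adra2c was already lower than in normal podocytes at day 4 and fell further. Adra2c, an alpha-2 adrenergic receptor, went from 3.53 ± 0.20 in normal podocytes to 2.32 ± 0.45 at day 4 and -0.34 ± 0.57 at day 7, a fall of 2.66 ± 0.27 between the days. Pld6, a mitochondrial phospholipase, fell by 2.71 ± 0.29 between the days, and its day 4 level was 0.72 below normal, which did not pass the test (limma adjusted p = 0.074).

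In the second kind the day 4 level was above normal. Psors1c2 and Ptprn, the latter a protein of secretory granules, were not well above background on any normal podocyte array, and were above it on all 8 injured arrays. Psors1c2 fell by 3.16 ± 0.65 from day 4 to day 7, and this was no longer called with the slide row as a term (1.86 lower). Ptprn fell by 2.54 ± 0.45. Chrm2, a muscarinic acetylcholine receptor, and Gipr, the receptor for a gut incretin, were above background only at day 4: Chrm2 was at least 5.62-fold lower at day 7 and Gipr at least 4.34-fold. The homeobox gene Dlx4, 1.33 above normal at day 4, fell by 2.74 ± 0.43, and Tmem179, 2.66 above normal at day 4, fell by 3.31 ± 0.76. Tmem179 spread widely at day 7, where replicate 1 measured -4.20 and replicate 3 measured -0.60.

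**Figure D3:**
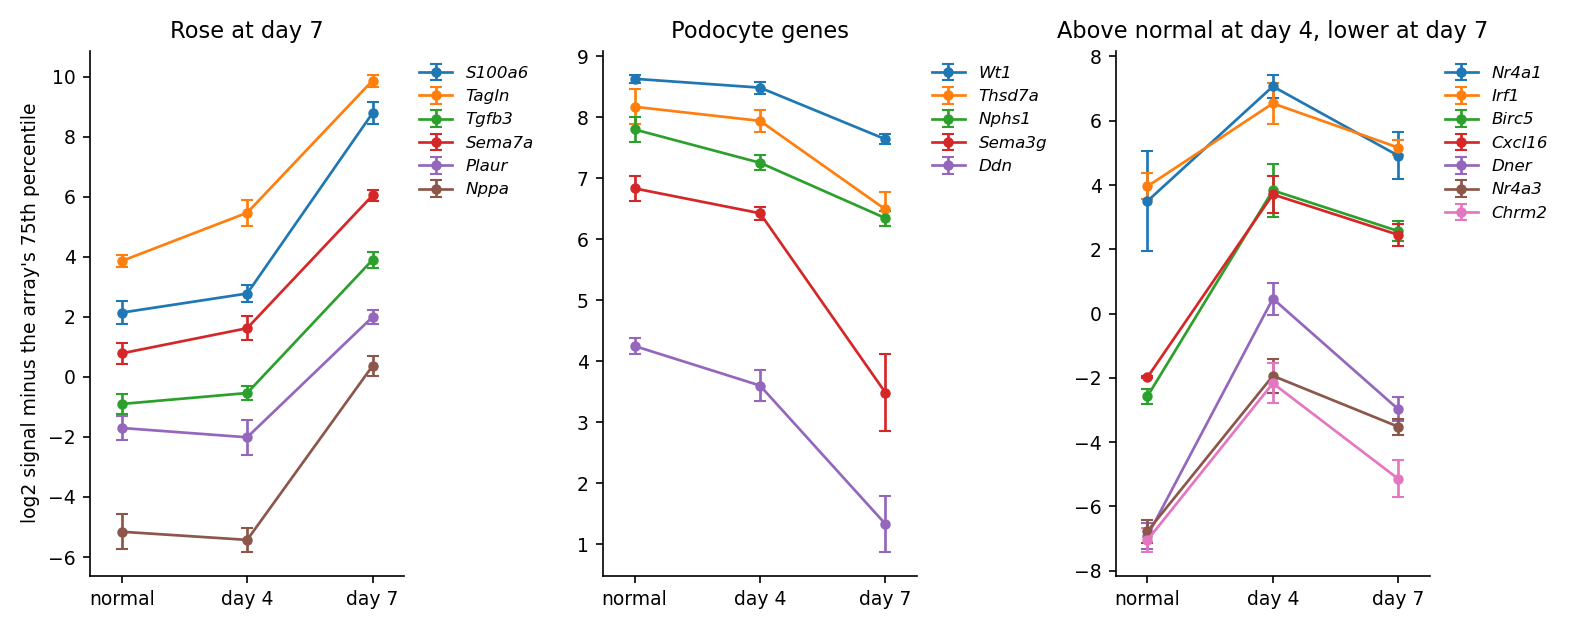
Mean and SD (n = 4 arrays) of the log2 signal minus the 75th percentile of the array in normal podocytes, at day 4 and at day 7, for 6 genes that rose at day 7, 5 podocyte genes and 7 genes that were higher at day 4 than in normal podocytes and then fell. Nppa at normal and day 4, Chrm2 at normal and day 7, and Dner and Nr4a3 at normal are near background, so their points there are upper limits of the level. The 5 podocyte genes have their lowest level at day 7.

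Of the genes that define the podocyte, those for nephrin, podocalyxin and Wt1 fell by less than 2-fold. Nphs1, which encodes nephrin, measured 7.19, 7.39, 7.31 and 7.12 at day 4 and 6.40, 6.17, 6.36 and 6.45 at day 7, a fall of 0.91 ± 0.15 (limma adjusted p = 5.9e-04). Podxl, the sialylated coat protein podocalyxin, fell by 0.71 ± 0.12 without overlap. Synpo, the actin organiser of foot processes, fell by 0.65 ± 0.12 on its brightest probe but was 0.34 higher on its other probe, and the call was lost when probes were averaged (-0.15).

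Of 16 slit diaphragm genes tested, 9 fell and 1 rose, and the median was -0.50 (all genes, -0.07). Ptpro, a receptor phosphatase of foot processes, fell by 0.95 ± 0.15, the motor Myo1e by 0.87 ± 0.10 and the guidance receptor Robo2 by 0.81 ± 0.12. Cd2ap, Fat1, Crb2, Nck1 and Nck2 fell by 0.45 to 0.68. The single rise, of Kirrel (Neph1) by 0.57 ± 0.20, was lost under 10 of 20 alternatives, and 5 of the 9 falls were still called with the slide row as a term, those of Cd2ap, Fat1, Crb2 and Nck1 not being among them.

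The podocyte transcription factors fell together: 7 of 10 passed the test, none rose, and the median was -0.84. Wt1, the factor needed for the podocyte fate, measured 8.47, 8.62, 8.46 and 8.38 at day 4 and 7.74, 7.63, 7.64 and 7.54 at day 7, a fall of 0.84 ± 0.10 (limma adjusted p = 2.6e-05). Foxc2 fell by 1.20 ± 0.14, Lmx1b by 0.98 ± 0.15 and Tcf21 by 0.90 ± 0.17. In none of these 4 genes did the days overlap. Beside the normal podocytes, the list's median difference was -0.18 at day 4 and -0.95 at day 7.

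Among 22 surface and foot-process genes tested, 10 fell and 2 rose, with a median of -0.31. Ddn, the synapse and foot-process protein dendrin, fell by 2.27 ± 0.19, from 3.88, 3.74, 3.30 and 3.49 to 0.97, 0.95, 1.88 and 1.54. Thsd7a, an antigen of membranous nephropathy, fell by 1.45 ± 0.18, the aminopeptidase Enpep by 1.25 ± 0.17 and the foot-process gene Rhpn1 by 1.26 ± 0.15. Vegfa, the growth factor by which podocytes support the capillary endothelium, fell by 1.24 ± 0.15. The rises were those of Actn4, the crosslinking actinin, by 0.78 ± 0.11, and Myh9, the heavy chain of non-muscle myosin, by 0.69 ± 0.16.

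The basement membrane genes moved in both directions: 9 of 17 rose, 3 fell, and the median was 0.49. Among collagen IV chains, Col4a1, Col4a2 and Col4a5 rose by 1.19 ± 0.28, 0.95 ± 0.24 and 0.49, while the differences of Col4a3 and Col4a4 were -0.22 and -0.25 and did not pass the test. Among laminin chains, Lama5 and Lamb2 fell by 0.55 ± 0.16 (lost under 5 of 20 alternatives) and 0.66 ± 0.13, and Lamb1 and Lamc1 rose by 0.71 and 0.54. The linkers Nid1 and Nid2 rose by 1.15 and 0.82, the proteoglycan Hspg2 by 0.78, and the proteoglycan Agrn fell by 0.53. With the slide row as a term 3 rises and 3 falls were called, and the rises of Col4a1 and Col4a2 (0.60 each), Col4a5, Lamb1, Lamc1 and Hspg2 were not. The Lama5 fall was not called with that term either (limma adjusted p = 0.06), so those 3 falls are not the same genes. The Lamb1 call was lost under 6 of 20 alternatives. The same genes are made by endothelial and mesangial cells: mean levels of those marker lists at each day are given below, and their part in these rises was not tested.

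Most called matrix genes rose: of 34 matrix and matrix-remodelling genes tested, 19 rose and 3 fell, with a median of 1.01. All 3 ligands rose, Tgfb1 by 1.83, Tgfb2 by 3.21 ± 0.29 and Tgfb3 by 4.43. Around plasminogen activation, the receptor Plaur (4.01 ± 0.27, or 16.1-fold) and the activator Plau (0.94, lost under 5 of 20 alternatives) rose, and the activator Plat fell by 1.15 ± 0.16. Plaur measured -1.16, -2.38, -2.43 and -2.08 at day 4 and 1.76, 2.02, 2.31 and 1.88 at day 7. Fibronectin Fn1 rose by 1.97, a call lost under 6 of 20 alternatives, and the collagen chain Col1a1 by 2.87, while Col1a2, the partner chain of Col1a1 in type I collagen, differed by -0.45 and was not called.

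Matrix enzymes and crosslinkers rose too, Mmp2 by 2.76, Mmp14 by 1.08, Lox by 1.55 and Loxl2 by 1.08, with Mmp2 and Loxl2 not called with the slide row as a term. Among inhibitors, Timp1 rose and Timp2 rose by 0.61, whereas Timp3 fell by 0.62 ± 0.13. Thrombospondin Thbs1 fell by 0.54, a call lost under 3 of 20 alternatives. Col3a1, Col5a2, Thbs2 and Mmp3 were well above background on at most 1 of 4 arrays at either day.

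The semaphorins and their receptors did not move one way: 5 of 20 rose and 6 fell, with a median of -0.08 that became 0.01 with the detected-probe scaling or the slide row term, which gave 3 rises. The secreted Sema3g, Sema3b (0.78 ± 0.12) and Sema3e (0.66) and the transmembrane Sema5a (0.95 ± 0.12) fell, while Sema7a rose. Sema7a measured 1.49, 1.22, 1.60 and 2.17 at day 4 and 6.05, 6.29, 5.83 and 6.00 at day 7. Of the receptors, Nrp2 rose by 1.12 ± 0.21 and Plxna2 by 0.98, the latter not called with the slide row as a term, and Plxnb1 fell by 0.99. Nrp1 fell by 0.37, a call lost under 14 of 20 alternatives. In the Notch pathway 1 of 17 rose and 6 fell. Besides Dner, the ligand Dll1 fell by 0.55 (lost under 6 of 20 alternatives), the cofactor Rbpj by 0.46 and the targets Hes1 and Hey1 by 0.67 and 0.64, with the Hey1 call lost under the normexp correction. The receptor Notch1 rose by 1.29 ± 0.32 with 1 day 7 array inside the day 4 range, and this rise was lost with the slide row as a term.

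**Figure D4:**
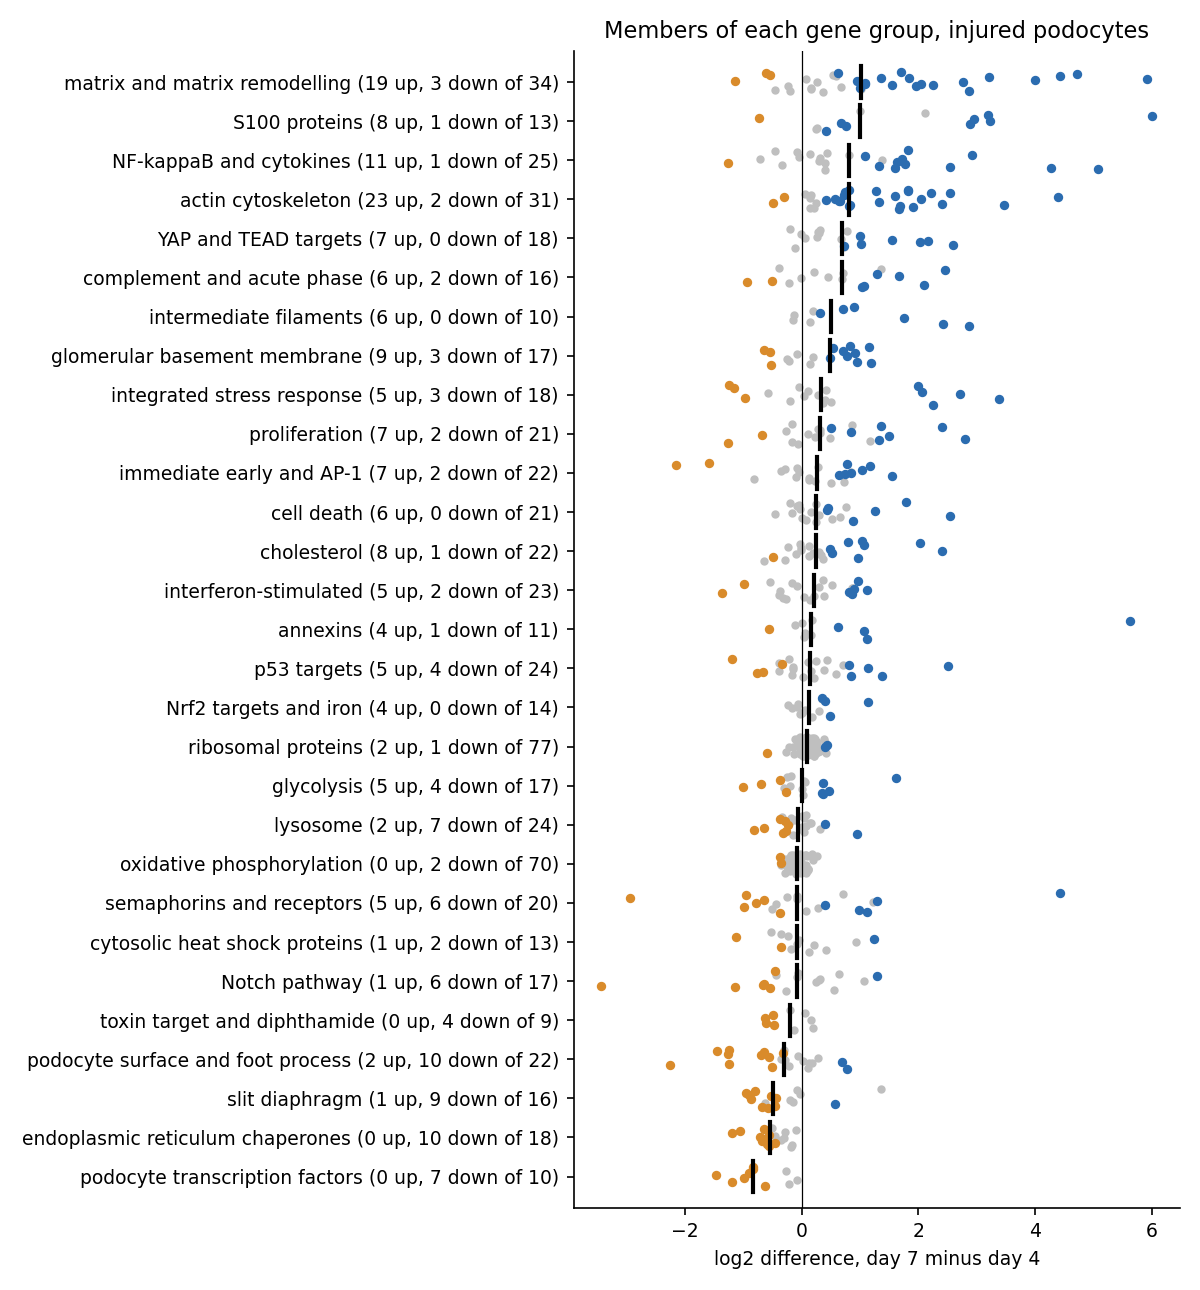
Log2 difference, day 7 minus day 4, of each tested member (dots) of 29 gene groups, with members called higher in blue, called lower in orange and others in grey, and the median of each group as a black bar. Groups are ordered by median: matrix, S100, NF-kappaB and actin genes are at the top and podocyte transcription factors at the bottom; members listed in several groups are drawn in each.

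Actin genes had the largest count of rises of any list: of 31 tested, 23 rose and 2 fell, with a median of 0.81, and with the slide row as a term 19 rose and 2 fell. The tropomyosins Tpm2 and Tpm1 rose by 2.54 ± 0.36 and 2.22, the calponin Cnn2 by 2.41 ± 0.17, the myosin light chain Myl9 by 2.05, the actinin Actn1 by 1.90 and zyxin (Zyx) by 1.82. Cytoplasmic actins Actb and Actg1 differed by 0.15 and 0.21 and were not called. The 2 falls were those of ezrin (Ezr), which ties podocalyxin to actin, by 0.49 ± 0.09, and radixin (Rdx) by 0.31 ± 0.10, the latter lost under 10 of 20 alternatives. The YAP and TEAD list holds targets of these mechanosensitive factors and also genes of the pathway itself, among them Yap1, Wwtr1, Tead1 and Tead4. In it 7 of 18 rose, with no fall and a median of 0.70. With the slide row as a term 5 rose and the median was 0.41. Ankrd1 rose by 2.59 ± 0.24, Ccn2 by 2.16 ± 0.33, Ccn1 by 2.03 ± 0.38 and Crim1 by 1.55 ± 0.16.

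Smooth-muscle genes are part of this group and of the mesangial list. The mean level of the 18 mesangial and smooth-muscle markers was -0.55 to -0.08 at day 4 and 0.71 to 1.14 at day 7, against 2.75 to 3.30 in glomerular cells, and 7 of them rose (11 without day 4 replicate 1). The called ones were Tagln, Des, Acta2 (1.66 ± 0.32), Cnn1 (above background on 1 of 4 day 4 arrays), Ren1 (1.52), Fhl2 (0.89) and Cspg4 (0.71, lost under 4 of 20 alternatives). Cnn1 was not called with the slide row as a term (adjusted p = 0.053). The defining mesangial markers Pdgfrb and Itga8 differed by -0.12 and 0.41 and were not called. Day 7 Tagln, at 9.60 to 10.07, was above its mean in glomerular cells, 4.77, whereas day 7 Acta2, at 1.92 to 3.01, was below its mean there, 4.47.

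Intermediate filament genes rose in 6 of 10, with no fall, and in 3 of 10 without day 7 replicate 1, without day 7 replicate 2 or with the array median scaling. Des, which encodes desmin, a marker of injured podocytes as well as of mesangial cells, measured -1.09, -1.73, -1.46 and -1.19 at day 4 and 1.42, 1.33, 1.48 and 1.73 at day 7. The rise was 2.86 ± 0.16 (limma adjusted p = 3.1e-08). Vimentin (Vim) rose by 0.90 ± 0.11 from an already high 7.49 ± 0.04. The keratin Krt18 rose by 2.42 ± 0.42, with day 7 replicate 3 at -1.93 and the others at -0.47 to 0.36.

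S100 genes rose in 8 of 13 and fell in 1, with a median of 1.00, and the count was the same with the slide row as a term. Beside S100a6, S100a3 rose by 3.23 ± 0.20, S100a4 by 2.96 ± 0.29 and S100a14 by 2.89. S100a10 and S100a11 differed by 0.25 and 0.26 and were not called, and S100a5 fell by 0.74 ± 0.13, a call lost under the normexp correction. Among annexins, which bind membranes in the presence of calcium, 4 of 11 rose and 1 fell. Anxa1 rose by 1.13 ± 0.11 and Anxa3 by 1.07 ± 0.15, and Anxa4 fell by 0.57 ± 0.12. Anxa8 measured 0.44, 0.37, -3.10 and -1.36 at day 7 and was above background on 1 of 4 day 4 arrays, with a difference of 5.62 ± 0.57 that was 1.89 with the normexp correction.

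NF-kappaB and cytokine genes rose in 11 of 25 and fell in 1, with a median of 0.82. The inhibitor Nfkbie measured 1.84, 2.04, 2.04 and 2.29 at day 4 and 5.17, 5.03, 4.91 and 4.81 at day 7, a rise of 2.92 ± 0.14. Csf1, the growth factor of macrophages, rose by 2.54 ± 0.20, the adhesion molecules Icam1 and Vcam1 by 1.63 and 1.82 ± 0.53, and the chemokines Cxcl10, Ccl5 and Cx3cl1 by 1.77, 1.60 and 1.33. The Vcam1 call was lost without day 7 replicate 2, and Icam1 and Ccl5 were not called with the slide row as a term. The chemokine Cxcl16 fell by 1.26 ± 0.23, from 3.71 ± 0.59 to 2.45 ± 0.34, and stood at -1.98 ± 0.02 in normal podocytes. The factors Nfkb1, Nfkb2 and Relb differed by 0.32, -0.05 and 0.13 and were not called. Of 21 leukocyte markers 2 rose and 2 fell (9.52% each, against 13.2% and 20.7% of all genes). These counts were 1 to 3 and 0 to 2 when each array was left out in turn. The list's mean levels were -3.33 to -1.89 at day 4 and -2.62 to -2.19 at day 7. The pan-leukocyte gene Ptprc was above background on 0 of 4 arrays at day 4 and 1 of 4 at day 7.

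Immediate early genes were mostly above normal at both days. The list's median against normal podocytes was 2.43 at day 4 and 2.48 at day 7, and 7 of 22 rose and 2 fell between the days, with 4 rises without day 4 replicate 2 or without day 7 replicate 1, and 4 falls with quantile normalization. The AP-1 subunit Fosl1 rose by 1.55 ± 0.32, and Myc and Klf4 by 1.17 ± 0.38 and 1.03 ± 0.21. The Myc call was lost under 5 of 20 alternatives. The nuclear receptors Nr4a1 and Nr4a3 fell by 2.16 ± 0.60 and 1.58 ± 0.24, and the Nr4a1 call was lost with the slide row as a term (1.11 lower). Fos, Jun and Egr1 differed by 0.12, -0.05 and 0.23 and were not called.

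Complement and acute-phase genes rose in 6 of 16 (37.5%, against 13.2% of all genes) and fell in 2 (12.5%, against 20.7%). Complement C3 rose by 2.10 ± 0.44, Saa3, an acute-phase amyloid protein, by 2.46 ± 0.33 and clusterin (Clu) by 1.67 ± 0.20. The genes that fell, Cd55 (0.94 ± 0.15) and Cd59a (0.51 ± 0.13), protect cells from complement. Interferon-stimulated genes rose in 5 of 23 (21.7%, against 13.2% of all genes) and fell in 2 (8.70%, against 20.7%). There were 3 rises without any 1 of day 4 replicates 1, 3 and 4 and day 7 replicates 1, 2 and 4, and 1 fall without day 4 replicate 2 or day 7 replicate 3. Irf1 fell by 1.38 ± 0.29, and with the slide row as a term 1 rise and no fall was called.

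The stress programmes differed from one another. In the integrated stress response 5 of 18 rose (27.8%, against 13.2% of all genes) and 3 fell (16.7%, against 20.7%). The rises were in Chac1, which degrades glutathione, by 3.39 ± 0.43, in Phgdh and Psat1 of serine synthesis by 2.72 ± 0.38 and 2.06 ± 0.25, in asparagine synthetase Asns by 2.25 ± 0.26 and in Trib3 by 1.99, the last not called with the slide row as a term. Ddit3 (CHOP) and the amino acid transporter subunit Slc3a2 fell by 0.97 ± 0.25 and 1.16 ± 0.11, and Atf4 differed by 0.36 and was not called. Phgdh varied at day 7, from 1.64 to 4.24, and all 4 values were above the day 4 range of 0.09 to 0.46.

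Endoplasmic reticulum chaperones fell: 10 of 18 passed the test and none rose, with a median of -0.54 and all 18 differences below 0. Pdia4, a disulfide isomerase, fell by 1.19 ± 0.20 from 3.66, 3.82, 3.70 and 3.77 to 2.02, 2.69, 3.11 and 2.39. Hyou1, Edem1 and Hsp90b1 fell by 0.71 ± 0.16, 0.68 ± 0.10 and 0.66, and the Hsp90b1 call was lost without day 4 replicate 2 or day 7 replicate 1. Hspa5 (BiP) differed by -0.30 and was not called. With the slide row as a term 17 of 18 fell. Against normal podocytes the list's median was -0.42 at day 4 and -0.90 at day 7.

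Among the 13 cytosolic heat shock genes, Hspb1 rose by 1.24 ± 0.23, a rise lost with the slide row as a term, and Hspb8 fell by 1.13 ± 0.16. In the Nrf2 and iron list 4 of 14 rose, with 1 rise under the array median scaling and 2 with the slide row as a term, and the iron exporter Slc40a1 rose by 1.14 ± 0.25. Of 24 genes in the list of Trp53 and its targets, 5 rose (20.8%, against 13.2% of all genes) and 4 fell (16.7%, against 20.7%). Without day 4 replicate 2, 3 rose. The kinase Plk2 rose by 2.51 ± 0.36 and Btg2 by 1.38 ± 0.36, the latter not called with the slide row as a term, and Trp53inp1 and Ddb2 fell by 1.19 ± 0.18 and 0.77 ± 0.11. Of 21 cell death genes 6 rose and none fell (1 fell without day 7 replicate 1). Ripk3, the kinase of necroptosis, rose by 1.78 ± 0.29 and Casp4 by 1.26 ± 0.27.

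In the proliferation list 7 of 21 rose and 2 fell, and with the slide row as a term 2 rose and 1 fell. There were 4 rises without day 4 replicate 1, day 4 replicate 2 or day 7 replicate 1, and 1 fall without day 4 replicate 2 or 3 or day 7 replicate 1 or 4. Ccnd1, cyclin D1, measured 2.23, 1.38, 1.75 and 1.65 at day 4 and 4.43, 4.63, 4.52 and 4.61 at day 7, a rise of 2.79 ± 0.22. Mki67 rose by 2.40 ± 0.49, with day 7 replicate 3 at -3.92 and the others at -1.82 to -1.06, and was not called with the slide row. Birc5, survivin, fell by 1.27 ± 0.34, from 3.83 ± 0.83 to 2.57 ± 0.30, and stood at -2.57 ± 0.23 in normal podocytes. The toxin's target Eef2 measured 6.11 to 6.22 at day 4 and 6.13 to 6.40 at day 7 and was not called (0.06 ± 0.09). Of the 9 genes in the list of Eef2 and the pathway that makes its toxin-modified diphthamide residue, Dph2, Dph3, Dph6 and Dph7 fell, by 0.48 to 0.64, and the Dph2 call was lost under 11 of 20 alternatives. Messenger of Rpl22, the gene whose product carries the tag, was not called. It differed by 0.24 ± 0.13 on its brightest probe and by -0.15 with the mean of all probes.

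Counts in the metabolic lists depended on the processing. Cholesterol genes rose in 8 of 22 and fell in 1, with 5 rises without day 7 replicate 2 or 3 and 0 falls under the quantile, array median, detected-probe and authors' scalings and without day 4 replicate 2 or 3 or day 7 replicate 2 or 4. Among the rises was the synthesis enzyme Sqle (2.03 ± 0.20). Lysosomal genes fell in 7 of 24 and rose in 2, against 3 and 2 with the detected-probe scaling, 3 falls without day 4 replicate 2 or 3 and 4 without day 7 replicate 2. Cathepsin L (Ctsl), a protease of podocytes, fell by 0.81 ± 0.12 and Cd63 rose by 0.95 ± 0.11. In glycolysis 5 of 17 rose and 4 fell, against 1 rise with the slide row as a term or the array median scaling and 3 without day 7 replicate 2. The lactate exporter Slc16a3 rose by 1.61 ± 0.23 and the regulator Pfkfb3 fell by 1.01 ± 0.18. Of 70 oxidative phosphorylation genes 2 fell, Sdha and Ndufb11, with 12 falls and 1 rise under quantile normalization and 8 falls when the slide row was a term, in which Sdha was not called. The Ndufb11 call was lost under 8 of 20 alternatives. There was 1 fall without any 1 of day 4 replicates 2, 3 and 4 and day 7 replicates 1 and 4. Of 77 ribosomal protein genes 2 rose and 1 fell, with 15 rises under the detected-probe scaling, 6 without day 7 replicate 4, 1 without day 4 replicate 2 or 4 and 0 without day 4 replicate 1 or day 7 replicate 2 or 3. The medians of the oxidative phosphorylation and ribosomal lists were -0.08, which became 0.01 with the detected-probe scaling, and 0.10.

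For the podocyte transcription factors, chaperones, Nrf2 and iron, cell death, intermediate filament, YAP and TEAD, parietal, mesangial and oxidative phosphorylation lists, the direction in which limma called no member also held 0 members at an unadjusted p under 0.05.

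Some markers of other glomerular cells also differed between the days, while those of tubular cells were rarely called. Of 12 parietal epithelial markers 8 rose, 0 fell and the median was 1.60. Their mean level was -1.25 to -0.41 at day 4, -0.21 to 1.03 at day 7 and 1.59 to 1.90 in glomerular cells, with day 7 replicate 3 the lowest of its group. The defining Pax8 and Cldn1 rose by 1.12 and 1.60 (Cldn1 not called with the slide row as a term), Akap12 by 2.76 ± 0.41 and Cd44 by 1.78 ± 0.33, and Pax2 was not tested because it was dim. Krt8, called at 1.75 ± 0.63, overlapped between the days and was lost under 12 of 19 alternatives.

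Of 22 endothelial markers 9 rose and 1 fell, with a median of 0.66. Ecscr rose by 2.12 ± 0.24, Nos3 by 1.37 ± 0.39 (lost without day 4 replicate 2) and Fli1 by 1.22 ± 0.25. Ehd3 fell by 0.68 ± 0.24, a call lost under 10 of 20 alternatives, and the defining Kdr, Emcn and Cdh5 differed by 0.02, -0.09 and 0.44 and were not called. The day 7 endothelial level of 0.32 to 0.83 was 0.83 in replicate 4 and 0.32 to 0.37 in the others, and the list gave 15 rises without day 4 replicate 1 and 5 with the slide row as a term. Of 23 proximal tubule markers limma called 0, with 1 higher at an unadjusted p under 0.05 and 4 called higher without day 4 replicate 1. Their median of 0.60 became -0.10 without day 7 replicate 4. Of 6 red blood cell markers 0 were called, with 2 lower at an unadjusted p under 0.05 and 3 called lower without day 4 replicate 4, and their median of -1.14 became -0.44 without day 4 replicate 1. Of 16 distal nephron markers 1 fell, the water channel Aqp2 by 0.84, a call lost under 14 of 20 alternatives, and 2 rose without day 7 replicate 3 or with the slide row as a term. Whether these markers come from other cells or from podocytes was not tested.

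**Figure D5:**
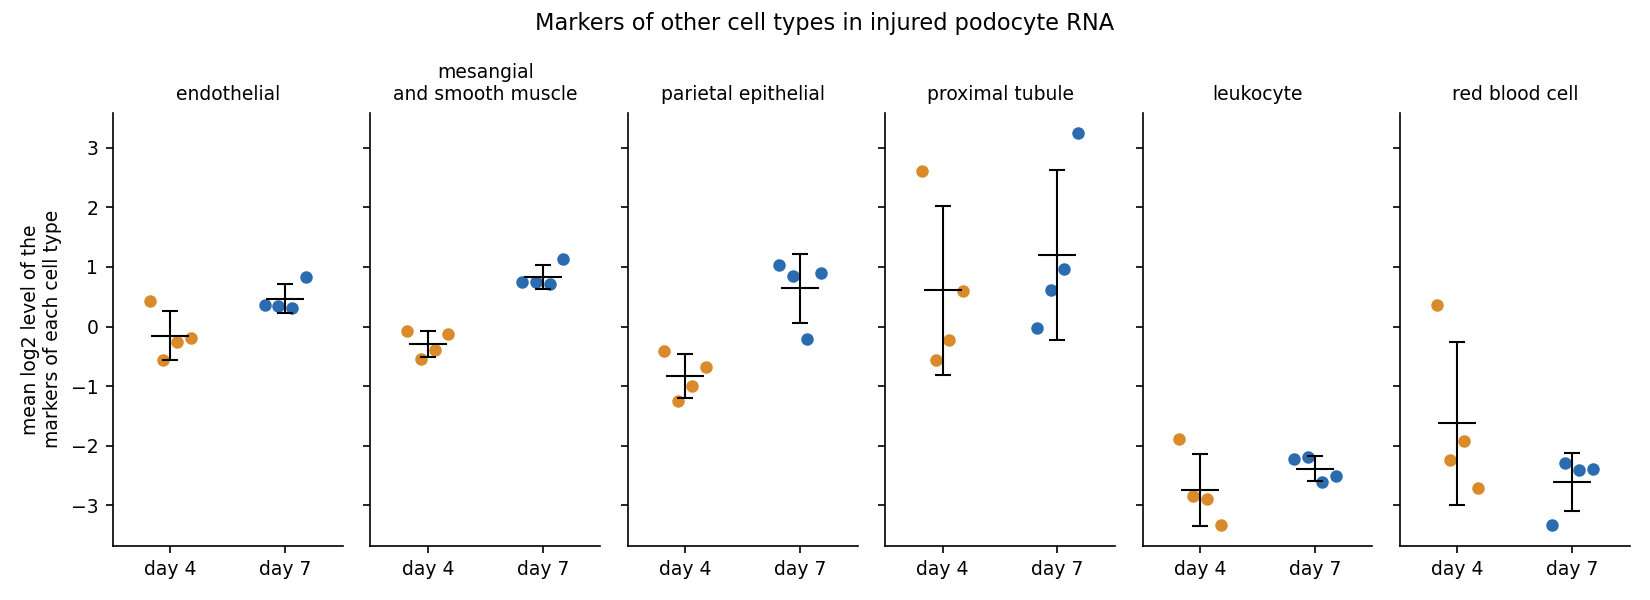
Mean log2 level of the marker genes of 6 other cell types on each day 4 and day 7 array (dots), with the mean and SD of the 4 arrays (bars). Parietal and mesangial markers are higher on every day 7 array than on any day 4 array, endothelial and leukocyte markers overlap, and day 4 replicate 1 and day 7 replicate 4 hold the highest proximal tubule levels.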

How the data were processed

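RNA from HA-precipitated podocyte polysomes of injured mice was measured on 1-colour Agilent arrays, 4 per day, beside 8 arrays of normal podocytes and glomerular cells. Per the file headers, spot intensity was extracted with Agilent Feature Extraction 11.5.1.1, and the deposited intensity used here (the processed signal) is already background-corrected by that software. The log2 scale was set here, as the deposited intensity's log2 minus each array's 75th percentile over non-control probes. The authors' value table, also log2 in the deposited file, was an alternative. Each of its columns matched an array here up to a constant, so it is another scaling of the same signal. Columns 1 to 3 of normal podocytes and of glomerular cells matched an array of another number in the same group. A probe was kept where some group had it well above background on each of its 4 arrays (19060 probes; 58 with missing values were set aside), and a gene was its brightest kept probe (14575 genes). Gene names came from the RefSeq table, by matching the transcript identifier that the array files give for each probe. This named 26582 of 55681 probes. A further 10639 probes without such a name were tested apart. limma 3.58.1 (R 4.3.3) fitted all 16 arrays with group as the only term (12 residual degrees of freedom), with Benjamini-Hochberg adjustment and a threshold of 0.05. The steps were tested on simulated data. Python 3.11.15, pandas 2.3.3 and matplotlib 3.10.9 were used for tables and figures.

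Where every array of one day was not well above background, a lower bound of the fold is given. The number of arrays limits the precision. Named genes were S100a6, Timp1, Sema3g and Dner, the 12 largest rises and falls measured on all 8 injured arrays without overlap, the 5 largest bounds each way, up to 4 called members per list and direction, and defining podocyte genes. Further list members, and the genes shown for their promoter word, were named after their values were seen. A ranking of genes by likeness to the 4 markers is not reported, because the arrays fall into separate groups. The members and lists were chosen with earlier results of these data known. Alternatives covered background correction, scaling, the dim-probe filter, the probes of a gene, the arrays fitted, a replicate block, each array left out and, chosen after seeing the data, the slide row as a term. Some genes that these rules would name are not reported here.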

Additional observations from a re-analysis of the deposited data

Results flagged for a closer look

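Within each day, the array farthest from the other 3 was compared with Dixon's 95% critical value for 4 samples, over 496 groups of named genes and list means. Chance passes about 1 in 20 such groups, and 24 passed. Values are log2 levels, with the array that stood apart.

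Day 4 replicate 1 stood apart in Casp4 at -1.55 (others -2.41 to -2.27), Ccn4 at -4.91, Clu at 3.13 (others 3.82 to 3.95), Dll4 at -3.34 (others -4.42 to -4.31), Dph7 at 0.12, Shisa4 at -1.82 (others -0.87 to -0.80) and the mean of the cholesterol list at 0.71. Day 4 replicate 2 stood apart in Cd55 at 5.62. Day 4 replicate 3 stood apart in Ccl7 at -6.33, Cdk1 at -5.82 (others -6.86 to -6.79) and Rdx at 4.61. Ccn4, Ccl7 and Cdk1 were not well above background on any day 4 array. Day 4 replicate 4 stood apart in Tagln at 6.11 (others 5.19 to 5.29).

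Day 7 replicate 1 stood apart in Hk1 at 5.12, Srxn1 at 2.52 (others 2.93 to 2.98), Synpo at 6.53 and the mean of the red blood cell list at -3.32 (others -2.41 to -2.28). Day 7 replicate 2 stood apart in S100a5 at -3.28, Sema3b at 4.94 and the mean of the lysosome list at 4.06 (others 4.13). Day 7 replicate 3 stood apart in the mean of the parietal epithelial list at -0.21 (others 0.84 to 1.03). Day 7 replicate 4 stood apart in Gipr at -6.79, below background there on all 4 arrays, in Vim at 8.29, in the mean of the endothelial list at 0.83 (others 0.32 to 0.37) and in the mean of the mesangial and smooth muscle list at 1.14 (others 0.71 to 0.75).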

How the results depend on the processing

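The counts of genes called higher (1930) and lower (3021) stayed within 1.5 times under the alternatives run, except that 1770 were lower with the replicate number as a block (1293 higher). Replicate numbers did not pair the arrays: deviations of same-numbered arrays correlated at -0.41, 0.16, 0.13 and -0.20. The block kept 58.1% of calls. The 1280 calls of at least 2-fold became 600 with the normexp correction, which adds an offset of 50 to every signal. Leaving out each array in turn gave 1548 to 1885 higher, 2239 to 2856 lower and 1133 to 1359 of at least 2-fold. With the slide row as a term, 1356 were higher and 2757 lower, 65.0% of calls were kept and 2 genes had the opposite sign. Of the named differences, 45 lost their call with the slide row, 38 with the block and 23 without day 4 replicate 2. Among the called differences of genes named by the rule, that of Cdk1 turned its sign, to -0.28 without the filter on dim probes. Without that filter another, brighter probe stood for Cdk1, so its probes differed in direction. The uncalled differences of Rpl22 and Eef2 turned too, to -0.15 with the mean of all probes and -0.06 with the slide row. Dim probes limit the folds of genes near background to bounds.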

Other observations

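Among 10639 tested probes that carry no gene name in the table used, 735 were called higher and 1009 lower at day 7 (limma, adjusted p under 0.05). They are not described further.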
